A study of Mus musculus with 8 samples.

Results

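The genes described here are 46 markers of blood lineages other than natural killer (NK) cells, out of 21887 protein-coding genes of the RefSeq table of the same mouse build (mm10, GRCm38.p6), and all 46 symbols matched it. They comprise 14 B cell genes, 20 myeloid and dendritic cell genes, 8 basophil and mast cell genes and 4 erythroid and platelet genes. The list was given by name, and a peak belonged to a gene when the nearest end of any protein-coding gene, within 50 kb of the peak's midpoint, was an end of that gene. Open chromatin was profiled by ATAC-seq, in which a transposase cuts accessible DNA, in NK cells sorted from the spleens of unchallenged mice as CD49b+ CD3e- cells after DX5 bead enrichment, with 200000 cells per mouse. The WT group was 4 mice with wild-type HSF1 (replicates 4, 5, 6 and 7), and the MUT group was 4 mice whose HSF1, the heat shock transcription factor, has serines 303 and 307 replaced by alanine (S303/7A; replicates 26, 27, 28 and 29). Each mouse gave 1 library and 1 peak list, all mice were at steady state, and the labels give no age, sex or strain. The labels do not say whether the mutation is limited to NK cells.

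Lineage markers are genes whose products define a cell type, and their regulatory DNA is usually open in that cell type. NK cells share a lymphoid ancestry with B and T cells, and lymphoid progenitors open some regulatory DNA of several lineages before they commit. A peak near a gene shows accessible DNA, not transcription, and a gene can hold open enhancers while its start is closed.

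The lists held 42695 to 46102 peaks in WT and 44333 to 49627 in MUT, the largest being that of MUT replicate 27. Read depth is unknown because the files hold no counts. At a gene without a peak none was called, and its chromatin may still be open below the caller's threshold. The identity of the sorted cells was checked on 12 NK markers, among them Ncr1, Klrb1c, Eomes, Tbx21, Prf1, Gzmb and Itga2, which encodes the sort antigen CD49b. All 12 had a linked peak in 8 of 8 libraries, and 9 of the 10 with a tabulated start window had a peak over it in all 8. Of 12 T cell markers, 8 had a linked peak in all 8 libraries, and 2 of 8 had one over the start window in all 8. The 8 with linked peaks throughout were Cd3d, Cd3e, Cd3g, Cd5, Cd6, Cd28, Ctla4 and Bcl11b. Their strongest peaks had mean score percentiles, within each library's own list, of 40.2 (Cd3g) to 99.2 (Cd28). Cd4, Cd8a and Cd8b1 had none linked in any library. However, 4 libraries had a peak in the Cd4 body or within 1 kb of it that lay nearer to an end of another gene. Linked length, the sum of the lengths of a gene's peaks, at Klrb1c, which encodes the NK1.1 antigen, fell from 6347 ± 259 bp in WT to 5360 ± 213 bp in MUT (log2 -0.27, adjusted p = 0.0316 by limma), and the other 11 NK markers did not pass. Over all genes tested, 0.231% were called lower in this way. The Klrb1c call was not followed with a library left out. Such fits called 3 to 29 of all genes lower, in place of 33. The score percentile of the strongest Klrb1c peak went the other way, from 55.5 ± 2.11 in WT to 69.6 ± 7.93 in MUT (limma adjusted p = 0.103). A small share of other cells in the sort and a low level of opening in NK cells cannot be told apart in these bulk libraries.

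Most markers of the other lineages had a linked peak in the sorted cells of both genotypes, as did most protein-coding genes. The strength of a peak is given as the percentile of its score within its own list, and values after ± are SDs over 4 libraries. A linked peak was present in all 8 libraries for 30 of the 46 genes (65.2%), in 1 to 7 libraries for 9 and in 0 of 8 for 7. Over all protein-coding genes the shares were 57.6%, 9.53% and 32.9%. By lineage, 9 of 14 B cell genes, 12 of 20 myeloid and dendritic genes, 6 of 8 basophil and mast cell genes and 3 of 4 erythroid and platelet genes had a peak in all 8. Single libraries had peaks at 31 to 33 of the 46 genes in WT and at 33 to 37 in MUT, so the ranges met at 33. The count of 30 depended on the strength and place asked of a peak. It was 15 with the upper 50% of each list, 16 with peaks within 1 kb of either gene end and 12 of 38 at the start windows.

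**Figure D1:**
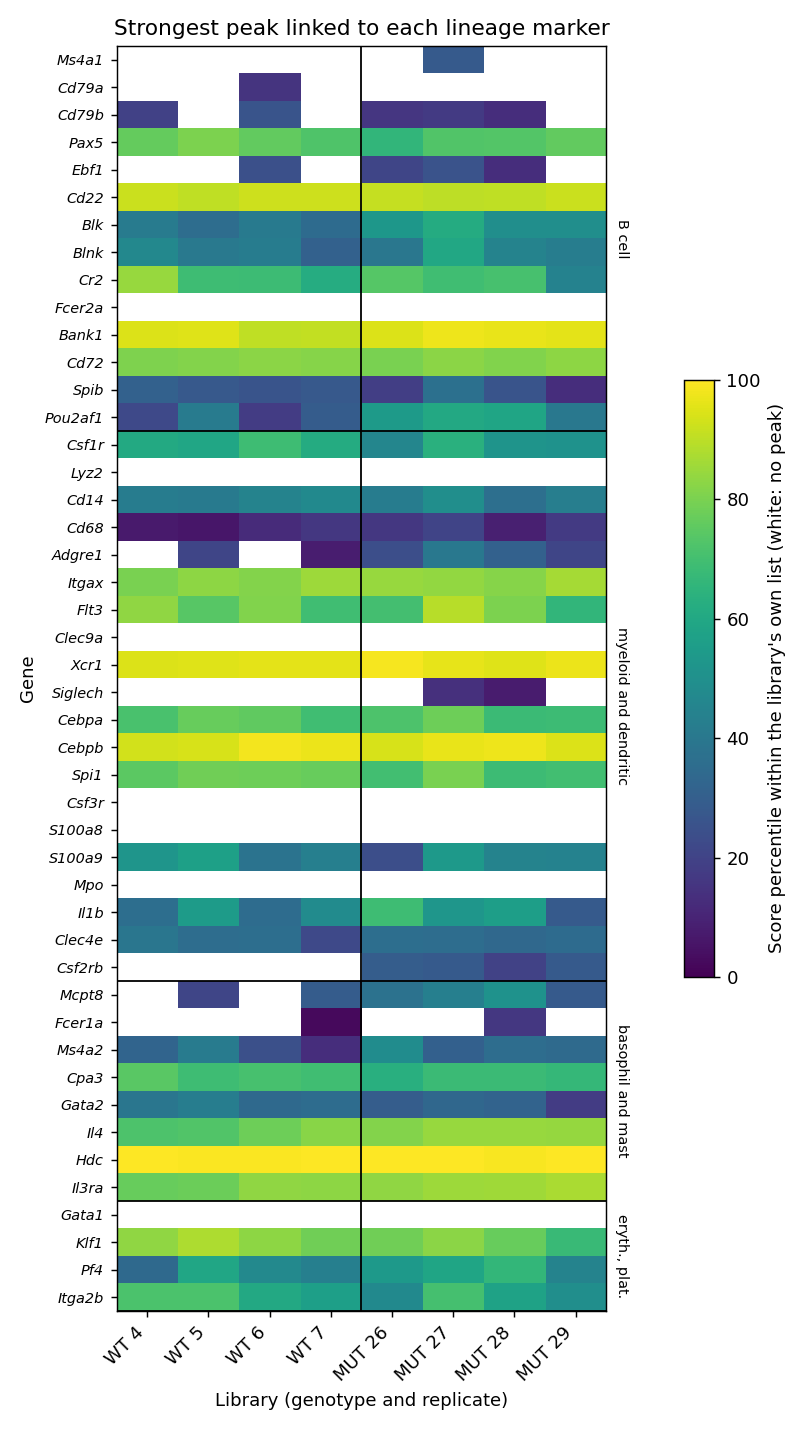
Score percentile, within each library's own list, of the strongest peak linked to each of the 46 genes (rows, by lineage) in the 4 WT and 4 MUT libraries (columns), with white where no peak was linked. Hdc, Xcr1, Cebpb, Bank1 and Cd22 lie near the top of every list, 7 genes are white throughout, and Csf2rb is white in the 4 WT libraries only.

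Fewer of the markers had peaks over their starts. RefSeq start windows, 250 bases before to 50 after a transcript start, were tabulated for 38 of the 46 genes. A peak lay over such a window in all 8 libraries for 12 of the 38 (31.6%) and in 0 of 8 for 19. Among all 17492 genes with a window the shares were 49.6% and 45.6%. The 12 genes were Cr2, Bank1 and Pou2af1 of the B cell list, Itgax, Flt3, Cebpa, Cebpb and Clec4e of the myeloid list, Gata2, Hdc and Il3ra of the basophil list, and Itga2b. Among the 26 genes with a window and a region called in all 8 libraries, the strongest such region lay over the start window in 7 (26.9%), against 59.0% of 10202 genes. The same held for 1 of 10 NK markers, so NK markers also had their strongest regions mostly away from starts.

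**Figure D2:**
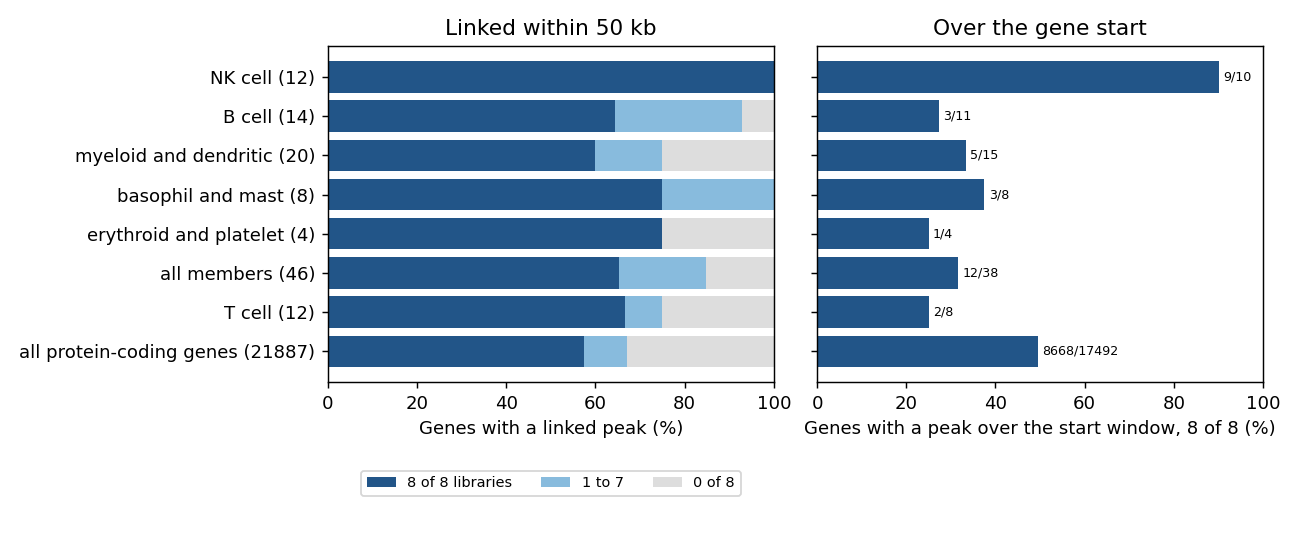
Left, the share of genes in each list (number of genes in brackets) with a linked peak within 50 kb in 8 of 8, 1 to 7 or 0 of 8 libraries; right, the share with a peak over a RefSeq start window in all 8 libraries, with counts. The 46 markers stand near all genes on the left (65.2% and 57.6%) and below them on the right (31.6% and 49.6%), and the NK markers stand at 100% and 90%.

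The DNA just before 5 of these starts is printed because their windows carried peaks in all 8 libraries and held a searched motif. Bank1, Cebpa and Il3ra are among the strongest start windows of their lists, and Pou2af1 and Clec4e, chosen after their values were seen, had more linked length in each MUT library than in any WT library. Each line gives the 250 bases before the start, read 5′ to 3′ on the gene's own strand, from RefSeq in GRCm38.p6. The stretches are chr3:136326067-136326316 (Bank1, minus strand), chr9:51213440-51213689 (Pou2af1, plus), chr7:35119043-35119292 (Cebpa, plus), chr6:123289872-123290121 (Clec4e, minus) and chr14:14346245-14346494 (Il3ra, plus). Capitals mark matches to TTGCNNAA, a form of the C/EBP factor motif, or to the TATA box TATAAA, on either strand.
Bank1: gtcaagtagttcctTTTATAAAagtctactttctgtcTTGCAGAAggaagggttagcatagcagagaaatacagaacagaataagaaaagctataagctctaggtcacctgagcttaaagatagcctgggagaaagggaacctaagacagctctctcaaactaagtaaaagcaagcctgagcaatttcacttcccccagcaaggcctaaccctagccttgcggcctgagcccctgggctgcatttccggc
Pou2af1: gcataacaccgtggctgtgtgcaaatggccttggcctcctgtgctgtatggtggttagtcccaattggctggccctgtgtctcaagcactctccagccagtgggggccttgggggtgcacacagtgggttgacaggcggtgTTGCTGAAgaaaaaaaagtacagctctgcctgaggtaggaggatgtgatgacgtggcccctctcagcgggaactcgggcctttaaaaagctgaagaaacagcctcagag
Cebpa: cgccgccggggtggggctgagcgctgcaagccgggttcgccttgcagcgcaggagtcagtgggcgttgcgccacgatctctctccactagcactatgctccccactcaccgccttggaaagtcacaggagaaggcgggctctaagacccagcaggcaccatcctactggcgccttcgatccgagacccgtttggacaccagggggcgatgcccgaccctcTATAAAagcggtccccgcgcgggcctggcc
Clec4e: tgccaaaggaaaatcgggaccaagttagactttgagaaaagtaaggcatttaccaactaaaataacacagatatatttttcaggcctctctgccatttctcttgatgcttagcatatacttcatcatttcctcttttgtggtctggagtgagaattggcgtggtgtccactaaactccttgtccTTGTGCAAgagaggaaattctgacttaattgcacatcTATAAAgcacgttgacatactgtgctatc
Il3ra: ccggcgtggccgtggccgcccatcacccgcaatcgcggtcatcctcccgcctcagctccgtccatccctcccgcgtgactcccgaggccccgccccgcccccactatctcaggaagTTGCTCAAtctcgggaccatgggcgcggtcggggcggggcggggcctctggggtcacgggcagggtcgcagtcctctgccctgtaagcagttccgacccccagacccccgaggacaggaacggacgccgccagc
Positions count from 1 at the 5′ end of each line. The C/EBP form stood at 38 in Bank1, 142 in Pou2af1, 185 in Clec4e and 117 in Il3ra. TATAAA stood at 221 in Cebpa and 222 in Clec4e, and in Bank1 at 17 with a match on the other strand at 15 that overlaps it. Start windows of Cr2, Flt3, Hdc and Itga2b also carried peaks in all 8 libraries, and the 250 bases before them held 0 of the motifs searched.

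Over the 38 genes with a window, TTGCNNAA was found in 11 (28.9%), against 10.5% of 17492 genes. TATAAA was found in 10 (26.3% against 13.7%). The PU.1 form GAGGAAGT was found in 4 (10.5% against 2.57%), namely Cd72, Mpo, Pf4 and S100a8. The RUNX form TGTGGTT was found in 5 (13.2% against 4.5%), the EBF form (TCCC, any 2 bases, GGGA) in Cd22 and Gata1 (5.26% against 0.972%), and the GATA form AGATAAG in Ms4a2 (2.63% against 2.89%). The T-box form AGGTGTGA, at 1.17% of all genes, and the heat shock element (GAA, any 2 bases, TTC, any 2 bases, GAA), at 0.452%, were found in 0 of the 38. All were searched on both strands, matches of different motifs may overlap, and a match is a run of letters, not a bound site.

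Among the transcription factors that direct B cell fate, Pax5 and Ebf1 had peaks inside the gene and few or none over their starts. Pax5, which keeps B cells committed, had 1359, 1588, 1352 and 1279 bp of linked peaks in the WT libraries and 1385, 1547, 1322 and 1108 bp in MUT. Regions in its body were called in all 8 libraries at chr4:44672570-44673214 (mean percentile 73.0), chr4:44674901-44675299 (14.1) and chr4:44704324-44704820 (70.8), the last 6122 bp from the gene's end. Its start window had a peak in MUT replicate 27 only, at a percentile of 5.81. Ebf1, which acts upstream of Pax5, had 0, 0, 407 and 0 bp of linked peaks in WT and 231, 231, 200 and 0 bp in MUT, and no peak over its 2 start windows. Deep in its body, over 50 kb from any gene end and so not linked to it, regions at chr11:44892838-44893327 (58.7), chr11:44923087-44923631 (75.2) and chr11:44924971-44925319 (35.99) were called in 8 of 8.

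The strongest B cell peaks lay at Bank1 and Cd22. Bank1, which encodes a scaffold of B cell receptor signalling, had percentiles of 94.6, 95.2, 90.6 and 90.6 in WT and 94.9, 97.6, 96.5 and 96.0 in MUT, from a region over its start window at chr3:136325680-136326338. Cd22 encodes an inhibitory receptor that binds sialic acid. Its percentiles were 92.0, 90.3, 92.5 and 92.5 in WT and 91.4, 90.2, 90.3 and 92.0 in MUT, and they came from a region 7511 bp outside the gene at chr7:30887537-30888169. Cd72, another inhibitory receptor gene, had 80.8, 81.4, 82.7 and 81.9 in WT and 79.8, 82.5, 81.2 and 83.2 in MUT, from a region 1852 bp outside the gene. The complement receptor gene Cr2 had a start region at 71.0 ± 9.68 in WT and 64.6 ± 13.5 in MUT (SD, n = 4), with MUT replicate 29 at 44.4.

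Ms4a1, which encodes CD20, had a single peak of 325 bp in MUT replicate 27, and Cd79a, the alpha chain of the receptor's signalling pair, a single peak of 214 bp in WT replicate 6. Cd79b, the beta chain, had 209, 0, 372 and 0 bp in WT and 842, 400, 220 and 0 bp in MUT, with no percentile above a percentile of 26.1. Fcer2a, the low-affinity IgE receptor gene, had none linked in any library. A region in the Fcer2a body, at chr8:3683731-3684186 and called in 7 of 8 libraries, lay nearer to an end of Trappc5. The adaptor gene Blnk had a body region in all 8 libraries, at 40.0 ± 6.57 in WT and 46.7 ± 9.14 in MUT.

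Of the myeloid and dendritic factors, Cebpb, Cebpa and Spi1 were open in all 8 libraries. Cebpb encodes a C/EBP factor of macrophages and of inflammatory responses. It had 5 regions called in 8 of 8, the strongest 7647 bp outside the gene at chr2:167697823-167698335 (mean percentile 95.7) and a weaker one over its start (46.4). Its linked length was 3941, 4172, 4125 and 3931 bp in WT and 3867, 4457, 4239 and 4242 bp in MUT. Spi1 encodes PU.1, the master factor of myeloid cells, and had 5 regions in 8 of 8, at mean percentiles of 19.0 to 72.1. Cebpa, which directs granulocyte fate, had 2, at the start (72.4) and 753 bp outside the gene (28.1).

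Receptor genes of myeloid and dendritic cells were split. Xcr1 encodes the XCL1 receptor of cross-presenting dendritic cells, and XCL1 is itself a chemokine made by NK cells. Its percentiles were 94.8, 95.1, 95.8 and 95.8 in WT and 98.5, 96.1, 95.3 and 96.9 in MUT, all from a region 10290 bp outside the gene at chr9:123871987-123872651, with the next gene end, of Fyco1, 20420 bp away. A region next to the Xcr1 gene but outside its body, at chr9:123850843-123852314 (80.7), lay nearer to an end of Fyco1. The Xcr1 start window had no peak. Itgax, which encodes CD11c, an integrin that mouse NK cells also carry, had percentiles of 79.8, 83.0, 81.3 and 85.2 in WT and 84.6, 83.7, 81.8 and 86.6 in MUT, the strongest of its 5 regions in 8 of 8 lying in the gene body. Flt3, the receptor tyrosine kinase gene of progenitors and dendritic cells, had a start region in all 8 libraries (mean percentile 76.7). Csf1r, the macrophage growth factor receptor gene, had a body region at 62.6 ± 4.45 in WT and 53.0 ± 7.33 in MUT, and Cd14, a lipopolysaccharide receptor gene, a region within 1 kb of its end at 43.8 ± 2.93 and 42.7 ± 5.16. Clec9a had no linked peak, and the plasmacytoid dendritic cell gene Siglech had 203 bp in MUT replicate 27, 200 bp in MUT replicate 28 and 0 bp in the other 6 libraries.

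Genes of effector proteins and granulocyte genes of the list were split as well. Lyz2 (lysozyme), Mpo (myeloperoxidase), S100a8 (a subunit of calprotectin) and Csf3r (the granulocyte growth factor receptor) had 0 peaks linked or in the gene body in any library. The region linked to S100a9, the partner of S100a8, was called in 8 of 8 but lay 14527 bp from the gene. Cd68, a macrophage lysosomal protein gene, had weak peaks within 1 kb of its start in all 8 libraries, at 10.6 ± 4.65 in WT and 15.7 ± 4.98 in MUT. Adgre1, which encodes F4/80, had 0, 639, 0 and 200 bp in WT and 260, 363, 298 and 616 bp in MUT, all in regions 11410 bp or more from the gene.

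The highest peak of any marker was at Hdc, the basophil and mast cell gene for the enzyme that makes histamine. Its percentiles were 99.8, 99.4, 99.5 and 99.8 in WT and 99.7, 99.6, 99.1 and 99.8 in MUT, from a region inside the gene at chr2:126605976-126606557, 12607 bp from its nearest end. A second region over its start window had a mean percentile of 29.9. Il3ra, the interleukin-3 receptor alpha chain gene, had a start region at 76.7, 77.4, 83.2 and 83.1 in WT and 83.4, 85.3, 85.6 and 87.4 in MUT. Il4, the type 2 cytokine gene, had a region 2628 bp outside the gene at 72.0, 73.0, 78.1 and 82.2 in WT and 81.6, 84.7, 84.6 and 84.0 in MUT. Cpa3, a mast cell protease gene, had 4 regions in 8 of 8 and none over its start. Gata2, a factor of mast cells and progenitors, had weak regions, at 37.8 ± 3.78 in WT and 28.0 ± 7.13 in MUT for the strongest peak. Ms4a2, the beta chain gene of the high-affinity IgE receptor, had regions outside the gene in all 8 libraries (27.9 ± 12.2 and 37.4 ± 7.82).

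Other basophil and mast cell genes had few peaks. Fcer1a, the alpha chain gene of the same receptor, had 210 bp in WT replicate 7, 200 bp in MUT replicate 28 and 0 bp in the other 6 libraries. Mcpt8, the basophil protease gene, had 0, 326, 0 and 314 bp in WT and 306, 402, 365 and 377 bp in MUT. A peak over its start was thus called in 2 of 4 WT and 4 of 4 MUT libraries, and the lengths overlapped.

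In the erythroid and platelet list, Gata1, the X-linked master factor of both lineages, had 0 peaks linked or in its body. Klf1, a factor of globin genes, had a body region with percentiles of 83.3, 87.6, 83.1 and 78.5 in WT and 78.3, 82.6, 76.6 and 67.9 in MUT. Itga2b, which encodes the platelet integrin CD41, had 71.7, 71.8, 60.5 and 56.3 in WT and 47.6, 70.6, 57.6 and 49.5 in MUT. Pf4, the platelet factor 4 gene, had a region 2464 bp outside the gene at 34.2, 59.2, 47.2 and 43.0 in WT and 54.2, 58.9, 66.0 and 44.6 in MUT. The groups overlapped for all 3.

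**Figure D3:**
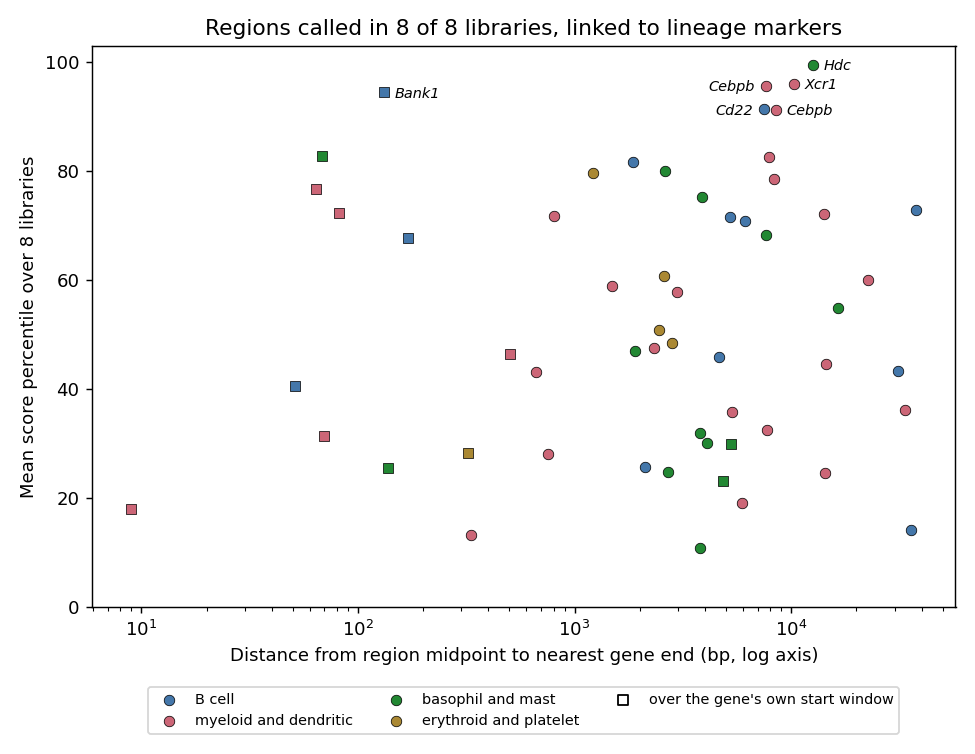
Mean score percentile over the 8 libraries (vertical) against the distance from a region's midpoint to the nearest gene end (horizontal, log axis) for the 56 regions called in 8 of 8 libraries, coloured by lineage, with squares for regions over the gene's own start window. Of the 6 regions above a percentile of 90, only that of Bank1 lies over a start window.

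By region, the markers had 80 consensus regions, meaning regions called in at least 2 libraries, and 56 of them (70%) were called in all 8. The share over all 50044 consensus regions was 68.9%. Of the 56 regions, 15 lay within 1 kb of a gene end, 23 in a gene body and 18 between genes. Their median percentile was 49.7, against 62.1 for the 29242 such regions linked to any gene. Regions over a gene's own start window (13 of 56) had a median of 40.5, and the other 43 had 55.0. Another 16 regions were called in a single library.

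The genotype comparison asked whether linked length differed between MUT and WT at these genes. Limma tested it on log2(bp + 200) over all 14257 genes with a linked peak in at least 2 libraries, 37 of them markers. Past an adjusted p of 0.05, 3 of the 37 rose in MUT and 0 fell, where 0.442% of all genes rose and 0.231% fell. At an unadjusted p under 0.05, 7 were higher and 1 lower, against 5.74% and 5.46% of all genes. All 4 MUT libraries lay above all 4 WT libraries for 5 markers (4.23% of all genes) and below for 0 (1.52%). The counts of 3, 7 and 5 all include Csf2rb, which had no WT peak and entered the test through its MUT peaks alone. The median log2 difference of the 37 was 0.0042, with 19 above 0, and that of all genes was -0.019.

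The 3 genes that rose were all in the myeloid list: Csf2rb, Il1b and Clec4e. Csf2rb encodes the beta chain shared by the receptors of interleukin-3, interleukin-5 and GM-CSF. It had 288, 275, 209 and 251 bp in MUT and 0 bp in each WT library, so no fold is given (adjusted p = 0.0350 by limma). It entered the test, which needed a peak in at least 2 libraries, through its MUT peaks alone. The peaks form the region chr15:78320859-78321161, called in 4 of 4 MUT and 0 of 4 WT libraries at percentiles of 19.7 to 29.3. It lay 4790 bp outside Csf2rb and 15289 bp from Csf2rb2, the neighbouring gene of similar sequence. Whether reads were assigned uniquely between these copies is not given in the sources used here. Csf2rb and Hsf1, the gene that carries the mutation, both lie on chromosome 15. The part in this call of DNA inherited together with the mutated Hsf1 was not tested.

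Il1b, the interleukin-1 beta gene, had 378, 405, 349 and 410 bp in WT and 655, 833, 935 and 563 bp in MUT (log2 0.65, SE 0.105, limma adjusted p = 0.0390). A region 2320 bp outside the gene, at chr2:129373252-129373716, was called in 8 of 8. A further region 14315 bp away, at chr2:129385284-129385675, was called in 4 of 4 MUT and 0 of 4 WT libraries, at percentiles of 9.99 to 38.5. Linked only up to 10 kb, Il1b stood at log2 -0.018 (limma adjusted p = 0.987), because that region then dropped out.

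Clec4e encodes Mincle, a receptor for glycolipids of microbes and dying cells. It had 504, 593, 591 and 531 bp in WT and 754, 859, 855 and 727 bp in MUT (log2 0.37, SE 0.0600, limma adjusted p = 0.0387). Its start region was called in 8 of 8. A region in its body at chr6:123286366-123286679 was called in 4 of 4 MUT libraries and in WT replicate 6 only, and that at chr6:123289011-123289377 in all but WT replicate 6.

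These 3 calls were near the threshold. With any of the 8 libraries left out, Csf2rb and Clec4e missed the threshold (limma adjusted p = 0.0621 to 0.145 and 0.0583 to 0.116). Il1b missed it in 7 of these 8 fits (0.0781 to 0.118) and passed without MUT replicate 29 (0.0376). The log2 difference then ranged from 0.33 to 0.40 at Clec4e and from 0.56 to 0.72 at Il1b, and over all genes 19 to 53 were called higher in place of 63. Without scaling of the libraries only Csf2rb passed.

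**Figure D4:**
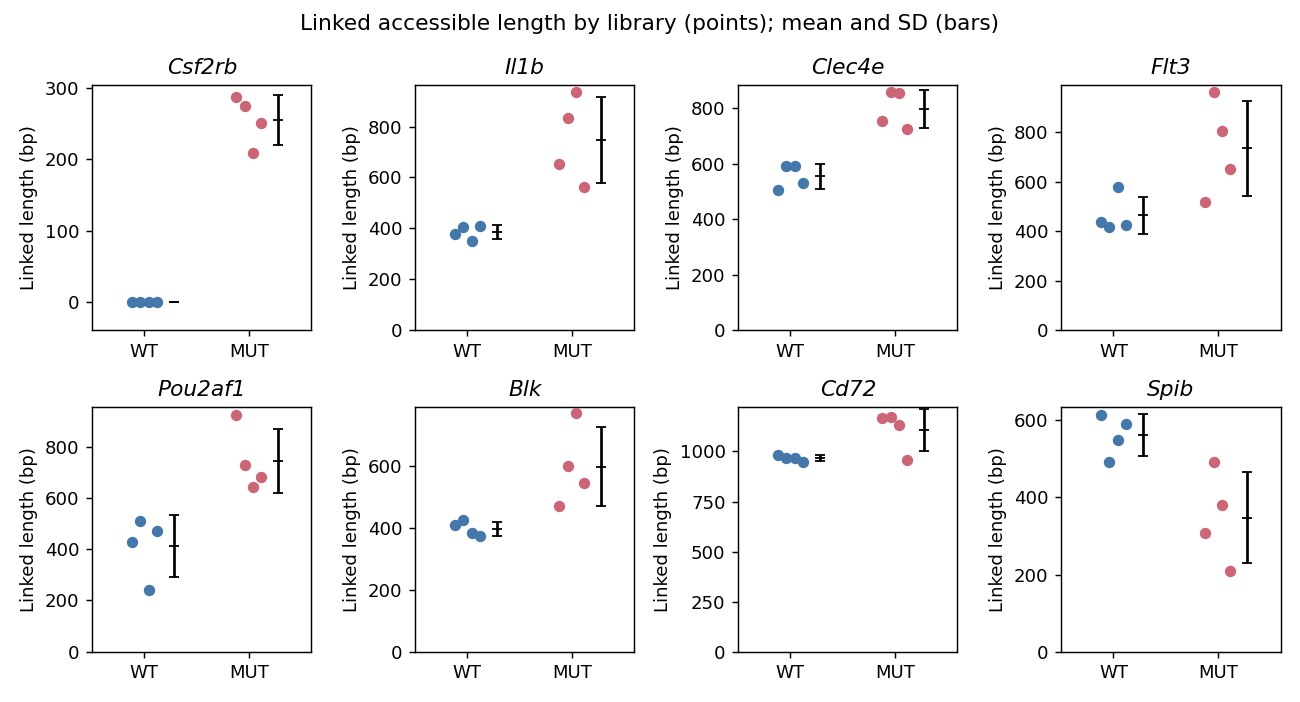
Linked length in bp (points, 1 per library; bars, mean and SD of 4) in WT and MUT for the 8 markers with an unadjusted limma p under 0.05. Csf2rb, Il1b, Clec4e, Pou2af1 and Blk lie higher in all 4 MUT libraries than in any WT library, and only the first 3 pass the adjusted threshold.

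The 4 B cell genes with an unadjusted p under 0.05 did not pass over all genes. Pou2af1, the coactivator of octamer factors in B cells, had 427, 511, 241 and 470 bp in WT and 922, 729, 642 and 683 bp in MUT (log2 0.61, SE 0.165, limma adjusted p = 0.211). Its only region lies over its start at chr9:51213176-51214103, so the same region was longer. Blk, a Src family kinase gene, had 409, 425, 385 and 375 bp and 472, 601, 773 and 546 bp (log2 0.37, limma adjusted p = 0.225). Cd72 stood at log2 0.13 (limma adjusted p = 0.384). Spib, an ETS factor related to PU.1, had 614, 491, 550 and 590 bp in WT and 309, 491, 381 and 210 bp in MUT (log2 -0.53, SE 0.134, limma adjusted p = 0.181), and MUT replicate 27 equals WT replicate 5.

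The Spib difference came from a region in its body at chr7:44527557-44527859, called in 4 of 4 WT and 0 of 4 MUT libraries. The neighbouring region at chr7:44527874-44528364 was called in all 8 and begins within a few bases of its end. Outside the B cell list, Flt3 had 438, 418, 577 and 424 bp in WT and 518, 963, 804 and 653 bp in MUT (log2 0.44, limma adjusted p = 0.259). The start region of Flt3 was called in all 8, and a body region at chr5:147366452-147366726 in 3 MUT and 0 WT libraries.

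**Figure D5:**
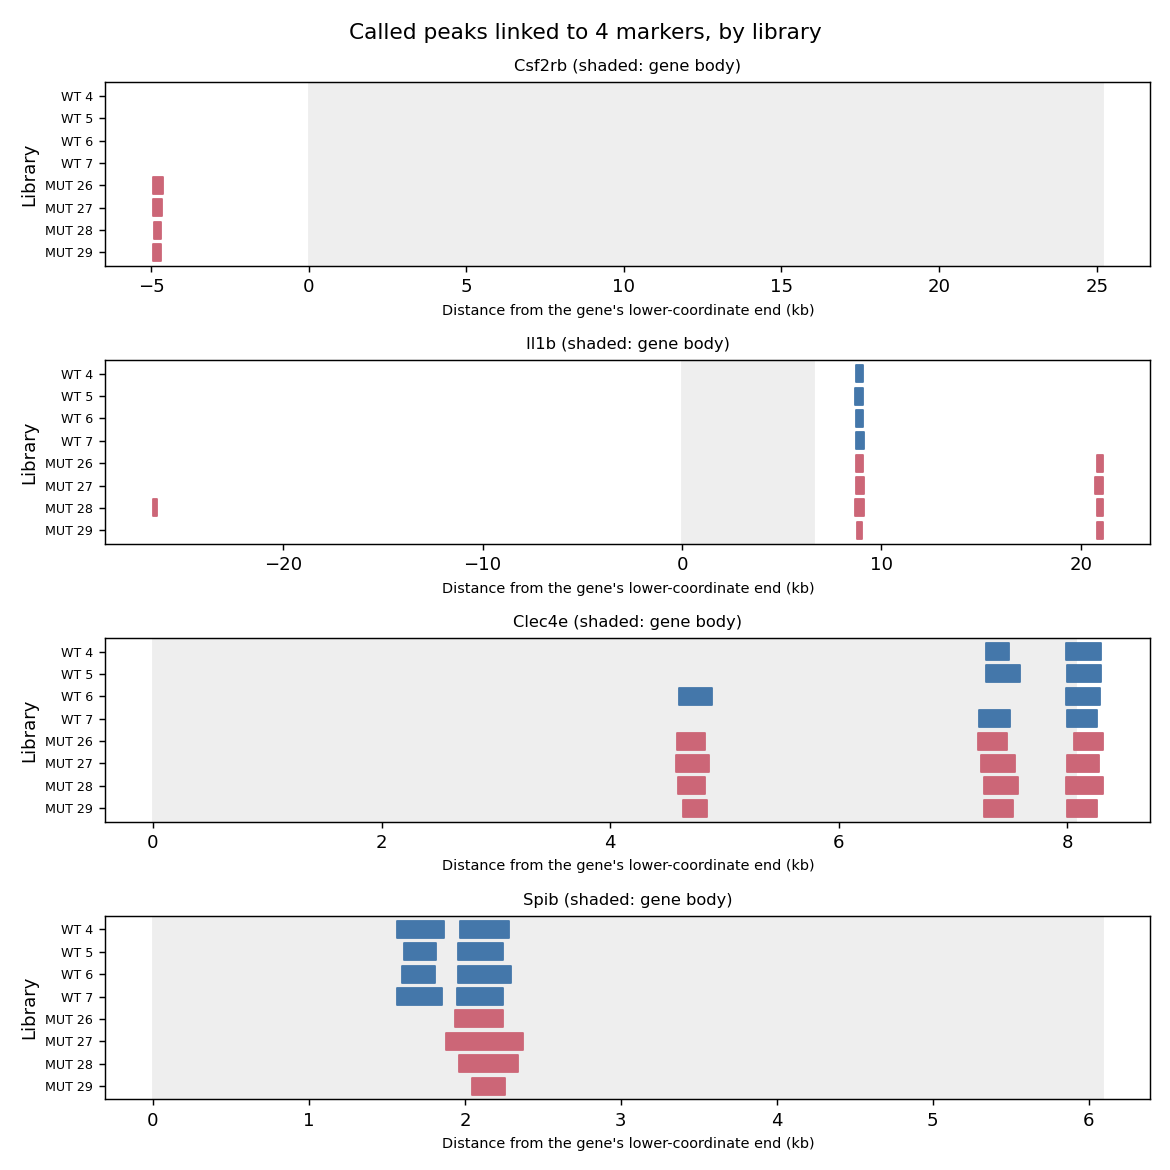
Called peaks linked to Csf2rb, Il1b, Clec4e and Spib in each library (rows; WT blue, MUT red) against the distance in kb from the end of the gene with the lower coordinate, with the gene body shaded. Regions called in 4 of 4 MUT and 0 of 4 WT libraries are seen at Csf2rb and Il1b, and the reverse at Spib.

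Among the 80 consensus regions, those at Csf2rb and Il1b were called in MUT only (2.50%, against 0.583% of all consensus regions) and that at Spib in WT only (1.25% against 0.178%). Counts of 2 and 1 are too few to set against these shares. No region passed Fisher's exact test after adjustment over all 50044 regions, and 3 marker regions had the smallest p that 4 against 4 libraries allow, 0.0286 before adjustment. With that limit and this many regions, 0 calls were fixed by the design. The list of MUT replicate 27 held more peaks than any other. With equal numbers of peaks in each list the same 3 genes passed and the same 3 regions were found.

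The percentile of a gene's strongest peak was tested with limma over the 12596 genes with a linked peak in all 8 libraries, 30 of them markers. Past the adjusted threshold stood 0 of the 30, where 0.683% of all genes were higher and 0.191% lower. At an unadjusted p under 0.05, 5 were higher and 2 lower in MUT (9.11% and 10.8% of all genes). Pou2af1 had 22.0, 41.7, 17.6 and 28.9 in WT and 54.4, 60.5, 58.9 and 40.0 in MUT, a difference of 25.9 percentile points (SE 6.16, limma adjusted p = 0.0890). Blk had 41.6, 35.8, 41.0 and 34.8 in WT and 53.0, 61.6, 49.6 and 49.3 in MUT, a difference of 15.1 points (SE 3.52, limma adjusted p = 0.0868). The Blk groups did not overlap, and those of Pou2af1 overlapped through WT replicate 5 and MUT replicate 29.

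The other 5 had differences of 7.44 points for Il4, 5.30 for Il3ra, 3.49 for Bank1, -9.60 for Csf1r and -9.81 for Gata2 (limma adjusted p = 0.1505, 0.198, 0.167, 0.225 and 0.240). The WT and MUT libraries did not overlap for Il3ra (5.33% of all genes higher in this way) or for Gata2 and Cpa3 (6.61% lower). Gata2 had 39.3, 42.4, 34.03 and 35.5 in WT and 29.3, 33.4, 31.7 and 17.6 in MUT, and Cpa3 74.3, 68.8, 71.0 and 69.2 against 63.2, 68.3, 68.2 and 66.6. At both genes the strongest peak was not the same region in every library. The Cpa3 region at chr3:20222858-20223750 overlapped, with 64.9 in WT replicate 5 and 68.3 in MUT replicate 27. That at chr3:20198965-20199245 did not, at 57.2 to 68.8 in WT and 40.0 to 54.8 in MUT. Each Gata2 region called in 8 of 8 overlapped. At Il1b and Clec4e, which rose in length, the percentile of the strongest peak was 43.7 ± 9.58 and 51.5 ± 16.9, and 33.3 ± 7.77 and 35.1 ± 1.001 (WT and MUT), so both groups overlapped.

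A further 65 markers of the same 4 lineages, chosen by name with earlier results of these data known, were measured in the same way. A linked peak was present in all 8 libraries for 33 of them (50.8%) and in 0 of 8 for 19, and 8 of 51 had a start-window peak in all 8 (15.7%). Of the 44 tested for length, 0 passed the adjusted threshold by limma. At an unadjusted p under 0.05, 8 were higher and 1 lower, against 5.74% and 5.46% of all genes. Among 16 further B cell genes 12 stood above 0, with a median log2 difference of 0.10. Among the 11 B cell markers tested above 6 did, with a median of 0.13. Over all 14257 genes tested, 6006 stood above 0. The summed linked length of the 16 was 8918 to 11422 bp in WT and 11195 to 15368 bp in MUT. That of the 14 B cell markers was 6435 to 7072 and 5904 to 8173 bp. For the T cell markers it was 11382 to 13186 and 12548 to 17380 bp. For the further myeloid and dendritic genes it was 26214 to 28119 and 27905 to 31095 bp, and for the NK markers 46050 to 48851 and 44841 to 49559 bp. In each of these lists the WT and MUT ranges overlapped and MUT replicate 27 gave the highest sum. The sums are not scaled. The part of B cells among the sorted cells in the values of Pou2af1, Blk and Cd72 was not tested. Of the 18 further erythroid and platelet genes, 7 had a linked peak in all 8 libraries and 8 in none. The 7 were Tal1, Epor, Gp1bb, Vwf, Itgb3, Nfe2 and Zfpm1, with mean percentiles of the strongest peak of 40.0 (Epor) to 97.1 (Vwf). The globin genes Hba-a1, Hba-a2, Hbb-bs and Hbb-bt were among those with none. How reads from near-identical globin copies were treated is not given in the sources used here. Of the 21 further myeloid and dendritic genes, 7 had 0 linked peaks in all 8 libraries, namely Camp, Ngp, Retnlg, Ly6g, Elane, Cxcr2 and Zbtb46. Of these, Zbtb46 alone had a peak in its body or within 1 kb of it, in all 8 libraries, that was not linked to it. The neutrophil granule genes Ltf (mean percentile of the strongest peak 92.9), Mmp9 (75.1) and Ctsg (51.2) had peaks in all 8, and Prtn3 in 5.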

How the data were processed

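The data are the authors' deposited peak lists, 1 per library with no pooling, and each peak has a deposited score without a name or stated meaning. That score served here only to rank peaks inside a list (percentile of peaks at or below it). mm10 (GRCm38) is the build, and Trimmomatic, Bowtie2 2.3.4.1, DiffBind 3.0.12 and DESeq2 are named without roles, per the submitters' processing notes. Which caller, threshold or read shift made the peaks is not given in the sources used here.

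Each peak's midpoint was linked to the nearest end of a protein-coding gene within 50 kb, and peaks overlapping by at least 1 bp formed a region. The RefSeq gene table gives no exons, and strand came from the start windows. For linked length, libraries were scaled to their median total and log2(bp + 200) was tested by limma 3.58.1 with a mean trend, a scale that understates changes of short lengths. Printed bp are not scaled. Percentiles went into limma untransformed, and regions into Fisher's exact test, two-sided, 4 against 4. Benjamini-Hochberg adjustment ran over all genes or regions, with a threshold of 0.05. Calculations used R 4.3.3, Python 3.11.15 and scipy 1.17.1, and the code was tested on simulated data. The labels call each mouse a biological replicate. Alternatives covered the linking distance, scaling, pseudocount, filter, peak strength and leaving out each library.

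The genes, lists and tests were chosen with earlier results of these data known. All 46 genes are named. Values in every library are given for genes past a threshold, with groups that do not overlap in length, with peaks in 1 to 7 libraries, with a genotype-only region, or among the 3 highest percentiles of their list. Other genes with values, and Trappc5, Fyco1 and Csf2rb2, were chosen after those were seen. Of 90 marker symbols outside the 46, 89 matched.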

Additional observations from a re-analysis of the deposited data

Results flagged for a closer look

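Dixon's criterion, which asks whether the highest or lowest value stands far from the rest, was applied to 134 groups of 4 values with any spread. The values were the linked length and strongest percentile of each marker. Chance meets the criterion in about 1 in 20 groups of normally distributed values. A group with peaks in 1 library only always meets it, so that rate does not apply here. In 14 of the 134 groups the highest or lowest library stood far from the other 3. MUT replicate 27 gave 4 of them, WT replicates 6 and 7 and MUT replicate 29 gave 3 each, and MUT replicate 28 gave 1. In several, 1 library had peaks where the other 3 of its group had 0 bp: Ms4a1 with 325 bp in MUT replicate 27, Cd79a with 214 bp and Ebf1 with 407 bp, from 2 peaks, in WT replicate 6, and Fcer1a with 210 bp in WT replicate 7 and 200 bp in MUT replicate 28. Ebf1 had 0 bp in MUT replicate 29, where the nearest MUT library had 200 bp.

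In linked length, MUT replicate 27 was high at Csf1r (760 bp, next 453) and Cd68 (514 bp, next 307). WT replicate 7 was high at Bank1 (1367 bp, next 954) and Il4 (931 bp, next 754), and WT replicate 6 at Flt3 (577 bp, next 438). MUT replicate 29 was low at Cebpa (689 bp, next 950). In percentile, MUT replicate 29 was low at Cr2 (44.4, next 69.4) and MUT replicate 27 high at Spi1 (79.9, next 69.7).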

How the results depend on the processing

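Of the markers longer in MUT, 1 passed without scaling (Csf2rb), 0 with the upper 50% of each list, and 0 to 1 with 1 library left out, against 3. With a pseudocount of 1000 bp or linking up to 10 kb 2 passed, Clec4e and Csf2rb; with a pseudocount of 50 bp, without the filter, with the gene of the merged region or with equal numbers of peaks the same 3 did. None was shorter by limma under any setting run. In the percentile test 1 marker, Csf2rb, passed when libraries without a peak were set to 0, and 0 under the other settings. Csf2rb had no WT peak, so that pass restates its calls in MUT alone and is no separate sign of a percentile difference. Genes with a peak in all, and in no, library numbered 16 and 18 within 1 kb of either end, 12 and 19 at the start windows, and 15 and 21 with the upper 50%, against 30 and 7. In the gene body or within 1 kb of it, an alternative chosen after seeing the data, they were 24 and 13. Regions called in MUT only numbered 1 when linked up to 10 kb and 0 with the upper 50%, and 2 to 3 with 1 library left out; those in WT only numbered 0 with the upper 50% and 1 with any library left out. With the upper 50% Cd72 turned to log2 -0.22, and at 10 kb Il1b to -0.018. The percentile difference of Il3ra turned to -2.83 with the mean of all linked peaks. The cause of these changes was not tested, except where peaks drop out: the peaks of Csf2rb and Clec4e, and the regions called in 1 genotype only, all lie in the lower 50% of the lists, so the upper 50% removes them and says nothing of their stability. No paired analysis was possible because the WT and MUT replicate numbers share none. Without read counts, a missing call at these mostly weak peaks may be a matter of depth.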
